A study of Mus musculus with 6 samples.

Results

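The 8 genes described here encode receptors for chemokines, the secreted proteins that steer leukocytes, and were chosen by name from a table of 56884 genes: Cxcr1, Cxcr2, Cxcr4, Ccr1, Ccr2, Ccr3, Ccrl2 and Cx3cr1. Their transcripts were measured by RNA sequencing in mouse neutrophils sorted from bone marrow as CD101+ Ly6G+ mature cells and then cultured outside the animal. Of the 6 libraries, 3 came from cells cultured with DKK1 (Dickkopf-1, a secreted Wnt antagonist) and 3 from cells cultured without it, called control. Neither the strain, genotype, sex and age of the mice nor the DKK1 dose and culture time was stated in the labels. Whether replicate libraries stem from different mice or dishes is unstated too, so each p-value reflects only library-to-library spread, possibly technical.

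Chemokine receptors span the membrane and signal through inhibitory G proteins to the cytoskeleton, and kinases and arrestins then switch them off. In neutrophils CXCR2 senses the CXCL1 and CXCL2 group and draws cells out of the marrow, whereas CXCR4 senses CXCL12 and holds them there. CCR1 and CXCR1 are further receptors of inflammatory chemokines, CCR2 and CX3CR1 are best known from monocytes and macrophages, and CCR3 from eosinophils. CCRL2 is an atypical member that binds chemerin and presents it to other receptors without signalling like a chemokine receptor.

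Of the 8 receptors, 3 were higher with DKK1 (Ccrl2, Cxcr1 and Cx3cr1) and 5 were lower (Cxcr2, Ccr1, Cxcr4, Ccr2 and Ccr3), by limma with a Benjamini-Hochberg adjusted p under 0.05 over all 16265 genes tested. The same threshold called 71.2% of all genes tested, 35.1% as higher and 36.1% as lower, so a call by itself sets no member apart. The same directions were called by edgeR, which called 82.9% of its 11870 genes (42% higher and 40.9% lower). They were also called by DESeq2, which called 46.5% of its 22582 genes (22.4% higher and 24.1% lower). These shares rest on unlike sets of genes, as edgeR called 9836 genes and DESeq2 10496. The 2 groups did not overlap for any of the 8 receptors, and they did not overlap for 73.9% of all genes. All 8 passed the filter on low values, Ccr2 and Ccr3 through the control libraries alone. The median log2 change of the 8 was -4.43, beside -0.03 over all genes tested. That median lies between Cxcr4 and the scarcely detected Ccr3, so it moves with the pseudocount and was -5.56 with a pseudocount of 0.1 and -2.28 with 10. Values are normalized counts, that is, reads per gene divided by 1 factor per library, and log2 changes are DKK1 minus control on the log2(value + 1) scale.

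The libraries labelled DKK1 held few transcripts of the sorted cell type, unlike the control libraries from the same CD101+ Ly6G+ sort. The sort was by protein before culture, and these values are RNA after culture, so the measures are not alike. Cd101 stood at 3.53 ± 2.31 with DKK1 and 5098 ± 178 in control, and Ly6g at 5.96 ± 1.30 and 1338 ± 72.7 (SD, n = 3 each). Whether the labels match these libraries was not tested, and every DKK1 value below is a value of the libraries labelled so. Over all genes tested 35.1% were higher and 36.1% lower with DKK1. Of 17 markers of mature neutrophils other than Cxcr2, 16 were lower with DKK1 and 1, Clec4d, was higher. Their summed level was 24848 to 25513 in DKK1 libraries and 745532 to 772680 in control. Clec4d, at 20130 ± 570 with DKK1 and 11573 ± 255 in control, made up most of the DKK1 sum. Of 18 monocyte and macrophage markers other than Ccr2 and Cx3cr1, 5 were higher and 10 lower. Their summed level was 33291 to 36398 in DKK1 libraries and 15590.3 to 15943 in control, or 19785 to 20854 and 15586 to 15939 without Gpnmb. Without Gpnmb, the largest part of the DKK1 sum was Cd68, at 10121 ± 286 with DKK1 and 902 ± 43.7 in control. The largest part of the control sum was Spi1, at 1495 ± 42.2 with DKK1 and 5522 ± 74.3 in control. The higher DKK1 sum thus rested mainly on Gpnmb and Cd68, and Cd163 and C1qa had 0 reads with DKK1. In such bulk libraries fewer cells of a type and less RNA per cell cannot be told apart, and the part of cell make-up in the results below was not tested. Recovered totals were 5188116 to 8749228 reads in DKK1 libraries and 8688911 to 9851961 in control, and DKK1 library 2 was the shallowest.

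The stretches before the start sites of 4 receptors are shown because these genes made up most of the receptor transcripts in one group or the other and moved in opposite directions. Each is the 250 bases upstream of the RefSeq start site on GRCm38.p6, written 5′ to 3′ on the gene's strand. Capitals mark matches, on either strand, to GAGGAA (PU.1), TTGCNNAA (C/EBP), TGANTCA (AP-1), TGTGGT (RUNX), GGGCGG (GC box) or the NF-kappaB consensus. Ccrl2 lies at chr9:111057519-111057768 on the minus strand, Cxcr1 at chr1:74194632-74194881 on the minus strand, Cxcr2 at chr1:74153744-74153993 on the plus strand and Ccr1 at chr9:123968693-123968942 on the minus strand.
Ccrl2: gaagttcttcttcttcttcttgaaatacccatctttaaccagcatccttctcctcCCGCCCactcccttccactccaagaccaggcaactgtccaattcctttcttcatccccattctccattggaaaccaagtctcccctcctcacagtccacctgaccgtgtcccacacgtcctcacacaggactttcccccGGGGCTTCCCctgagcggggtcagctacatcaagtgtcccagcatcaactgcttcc
Cxcr1: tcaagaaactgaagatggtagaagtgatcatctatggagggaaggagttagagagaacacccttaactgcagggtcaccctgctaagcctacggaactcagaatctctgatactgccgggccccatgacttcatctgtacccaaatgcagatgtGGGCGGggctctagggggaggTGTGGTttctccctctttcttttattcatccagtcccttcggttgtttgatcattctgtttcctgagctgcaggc
Cxcr2: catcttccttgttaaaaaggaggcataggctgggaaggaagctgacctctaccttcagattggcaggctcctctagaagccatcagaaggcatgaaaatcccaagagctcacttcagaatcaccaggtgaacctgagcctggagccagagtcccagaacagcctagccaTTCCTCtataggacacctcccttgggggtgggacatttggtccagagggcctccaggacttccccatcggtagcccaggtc
Ccr1: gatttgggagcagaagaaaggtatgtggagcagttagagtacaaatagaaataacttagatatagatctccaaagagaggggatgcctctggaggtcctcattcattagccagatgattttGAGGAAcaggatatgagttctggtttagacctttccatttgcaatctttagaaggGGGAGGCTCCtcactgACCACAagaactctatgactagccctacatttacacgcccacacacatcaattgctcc

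The Ccrl2 stretch held 1 NF-kappaB match and 1 GC box. An NF-kappaB match also stood in 7.25% of all 32851 promoter windows in the RefSeq table, and a GC box in 32.7%. The Cxcr1 stretch held 1 GC box and 1 RUNX match, and the RUNX letters were present in 14% of windows. In the Cxcr2 stretch the PU.1 letters were the only match, and they were present in 23.3% of windows. The Ccr1 stretch held 1 match each to PU.1, RUNX and NF-kappaB. No match to C/EBP (9.56% of windows) or AP-1 (6.75%) was found in any of these 4. The PU.1 and NF-kappaB letters can overlap, as they did in the window of Ccr3. These are matches of letters and not shown to be binding sites.

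Cxcr2 fell furthest of the 8. It stood at 31.3, 26.1 and 26.1 normalized counts in DKK1 libraries 1 to 3, against 37338, 37186 and 37214 in control libraries 1 to 3. The groups lay more than 3 orders of magnitude apart while the libraries within each group were close, and the 93 reads behind the DKK1 values compare with 105062 in control. The mean was 27.8 ± 3.00 with DKK1 and 37246 ± 80.9 in control (SD, n = 3 each), a 1338-fold lower level. Its log2 change of -10.34 (SE 0.08, limma adjusted p = 8.35e-12) was the 8th largest fall among all genes tested. Per kilobase of exon, Cxcr2 ranked 16th in control among the 15700 tested genes with an exon length, and 8623rd with DKK1.

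Cxcr1, its neighbour and closest relative in the family, moved the other way. It stood at 1172, 1543 and 1147 in DKK1 libraries 1 to 3, against 310, 341 and 306 in control. Every DKK1 library was above every control library, and DKK1 library 2 was the highest. The level was 4.04-fold higher, with means of 1287 ± 222 and 319 ± 18.9 (SD, n = 3 each; log2 change 2.00, SE 0.12, limma adjusted p = 4.06e-07). Within a library, the Cxcr1 level per kilobase was 76.5, 121 and 89.8 times that of Cxcr2 with DKK1, against 0.017, 0.0187 and 0.0168 times in control. This ratio does not depend on how libraries are scaled. It did not overlap between groups, and an exact permutation test (two-sided) gave p = 0.1, the smallest that 3 against 3 libraries allow.

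Cxcr4, the receptor that holds neutrophils in marrow, stood at 333, 418 and 277 with DKK1, against 6989, 6901 and 7185 in control. It was therefore 20.5-fold lower, with means of 343 ± 70.9 and 7025 ± 145 (SD, n = 3 each; log2 change -4.37, SE 0.13, limma adjusted p = 3.59e-09). The fall was smaller than that of Cxcr2, so the balance of the pair moved. The Cxcr4 level per kilobase was 17.9, 27.0 and 17.9 times that of Cxcr2 in DKK1 libraries 1 to 3, against 0.316, 0.313 and 0.325 times in control. On the log2 scale the ratio was 4.36 ± 0.34 with DKK1 and -1.65 ± 0.03 in control, a difference of 6.01 (exact permutation test, two-sided, p = 0.1, the smallest possible).

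**Figure D1:**
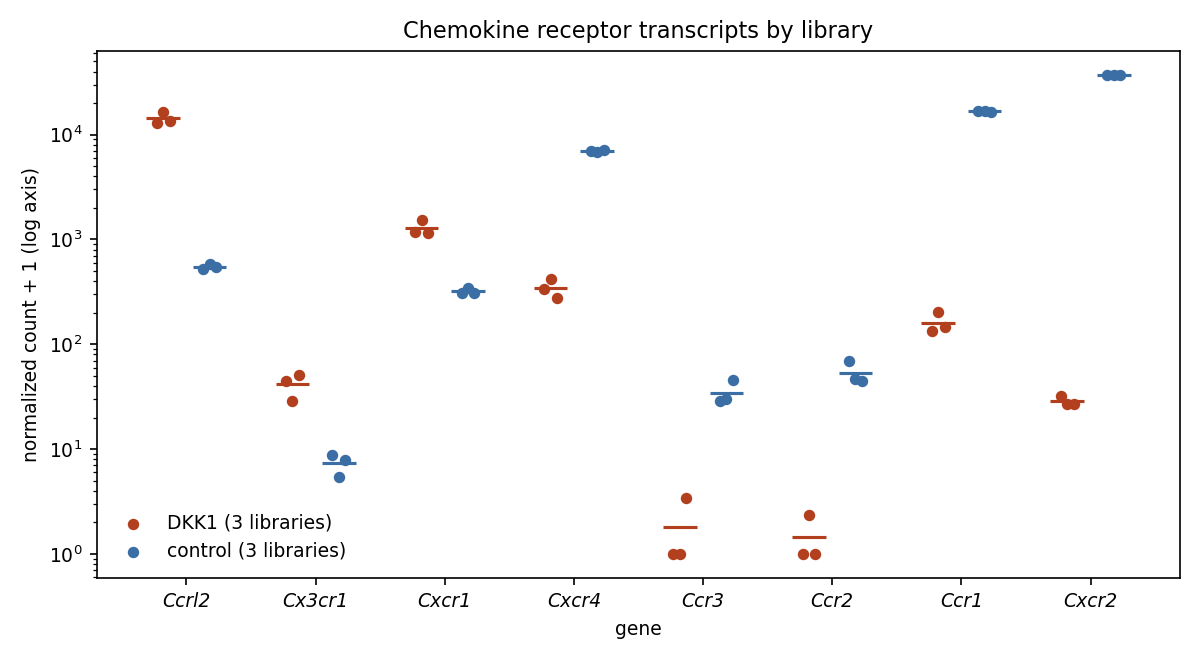
Normalized count plus 1 (log axis) of each receptor in 3 DKK1 libraries (left, red) and 3 control libraries (right, blue), with short lines at the group means and genes ordered by log2 change. Ccrl2, Cx3cr1 and Cxcr1 lie higher with DKK1 and the other 5 lie lower, with no overlap between groups.

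Ccr1, a receptor of CCL3, CCL5 and CCL6, stood at 133, 201 and 144 with DKK1, against 16997, 16778 and 16473 in control. With means of 159 ± 36.2 and 16749 ± 263 (SD, n = 3 each) it was 105-fold lower, the 208th largest fall. Its log2 change was -6.73 (SE 0.13, limma adjusted p = 3.95e-10). Per kilobase it stood at place 4 of the 8 with DKK1 and at place 2, after Cxcr2, in control.

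Ccrl2 showed the largest rise of the 8. It stood at 13037, 16374 and 13424 with DKK1, against 523, 578 and 546 in control. The lowest DKK1 library was far above the highest control library, and DKK1 library 2 was again the highest. The means were 14278 ± 1825 and 549 ± 27.5 (SD, n = 3 each), a 26.0-fold rise (log2 change 4.69, SE 0.09, limma adjusted p = 3.16e-10). Among tested genes with an exon length it ranked 33rd per kilobase with DKK1 and 1865th in control. Cmklr1, which encodes a signalling receptor for chemerin, rose as well, at a much lower level, to 179 ± 29.3 against 15.8 ± 5.91 in control (SD, n = 3 each; log2 change 3.47, limma adjusted p = 3.34e-06). Rarres2, which encodes chemerin itself, fell to 4.53 ± 3.41, against 83.3 ± 5.83 in control. Cmklr2, the other chemerin receptor gene, had 0 reads in both groups.

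Cx3cr1, the fractalkine receptor gene, was low in every library. It stood at 44.0, 27.5 and 49.8 with DKK1, against 7.69, 4.47 and 6.90 in control, from 140 and 18 reads in all. The DKK1 libraries were all higher, and here DKK1 library 2 was the lowest of its group. The means of 40.4 ± 11.6 and 6.35 ± 1.68 (SD, n = 3 each) gave a 6.36-fold rise (log2 change 2.48, SE 0.37, limma adjusted p = 0.000237). The GENCODE M21 model of Cx3cr1 spans 9 other genes and shares 78 exonic bases with Gm33858; strandedness is not given in the sources used here, so its reads are less certain than those of the other 7, which overlap no annotated gene.

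Ccr2 and Ccr3, receptors of CCL2 and of the eotaxins, were almost undetected with DKK1. Ccr2 stood at 0, 1.37 and 0 with DKK1, against 68.1, 45.8 and 43.3 in control, which is 1 read against 147. Pooled over libraries it was 172-fold lower, with a 95% exact counting interval of 30.3 to 6827 (limma adjusted p = 8.71e-06). Ccr3 stood at 0, 0 and 2.45 with DKK1, against 27.5, 29.0 and 44.3 in control, which is 3 reads against 96. Both groups of values were apart, but the DKK1 levels are at the limit of detection. Pooled, Ccr3 was 37.4-fold lower (interval 12.4 to 184, limma adjusted p = 9.10e-05). Reads carry no molecular identifiers, so these intervals cover counting error only. The log2 changes of this pair, -5.29 and -4.49, rest on the pseudocount and lay between -7.71 and -2.56 and between -6.81 and -2.00 over the alternatives. The eosinophil, basophil and mast cell markers other than Ccr3 summed to 221 to 336 in DKK1 libraries and 345 to 382 in control. Of 11 tested, 5 were higher and 3 lower, beside 35.1% higher and 36.1% lower over all genes tested. Those higher were the basophil and mast cell genes Gata2, Ms4a2, Cpa3, Mcpt8 and Prss34, by 6.87-, 5.84-, 5.76-, 4.70- and 3.91-fold. Those lower were the eosinophil genes Siglecf, at a mean of 1.20 with DKK1 and 292 in control, Ear2, at 0.458 and 13.3, and Il5ra, at 0.272 and 4.30. The split was not complete among the tested genes that were not called. The eosinophil gene Prg2 stood at 0, 4.12 and 150 in DKK1 libraries 1 to 3, with a mean of 8.28 in control. Epx, another, stood at 0, 2.75 and 38.4, with a mean of 0.372 in control. The basophil and mast cell gene Fcer1a had means of 0.544 with DKK1 and 2.78 in control. Ear1 had 0 reads in both groups. Ear6 had 0 in control and, like Ccr3, had reads only in library 3 among the DKK1 libraries.

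**Figure D2:**
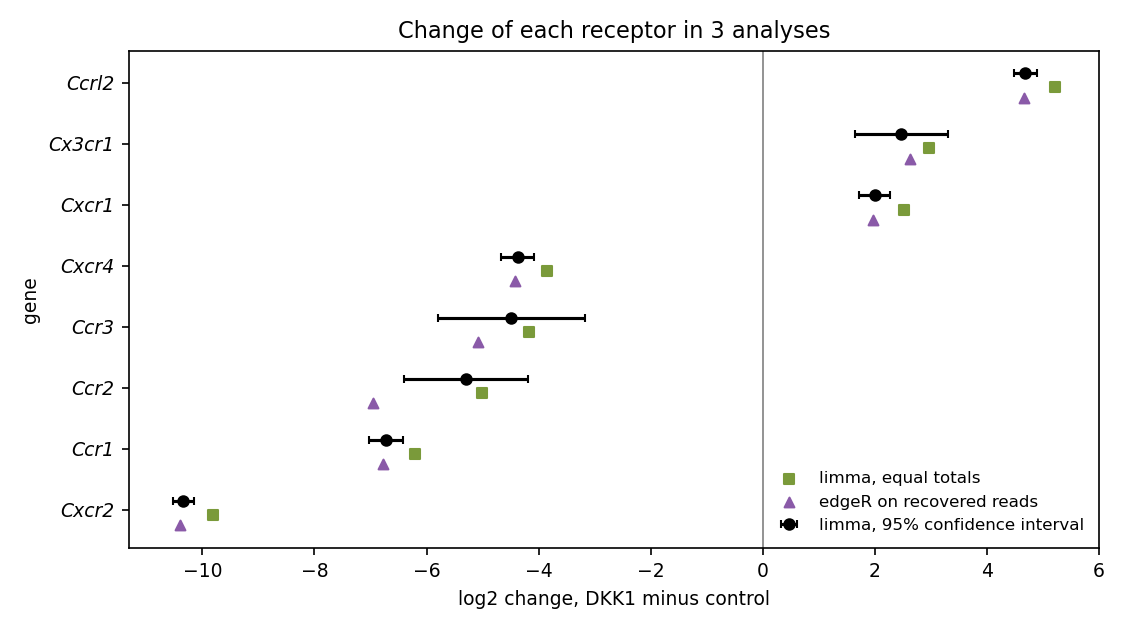
Log2 change (DKK1 minus control) of each receptor, from limma with its 95% confidence interval (black circles), from limma after scaling to equal totals (green squares) and from edgeR on recovered reads (purple triangles). Each receptor lies on the same side of 0 in all 3 analyses, and the widest intervals belong to Ccr3, Ccr2 and Cx3cr1.

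Summed normalized counts differed between groups, at 6738824 ± 336773 with DKK1 and 9729307 ± 39771 in control (SD, n = 3 each). Scaling all libraries to equal totals moved the median of all genes by 0.47 on the log2 scale and the split of calls to 7098 higher and 4742 lower, against 5709 and 5873 as deposited. That is 72.8% of genes called, 43.6% as higher and 29.2% as lower. Under that scaling the 8 receptors kept their directions and calls, with log2 changes from -9.82 for Cxcr2 to 5.22 for Ccrl2.

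Levels can be set side by side per kilobase of merged exon. Over the 8 receptors and the 16 other genes of the family, the summed level per kilobase was 6647 ± 890.4 with DKK1 and 22526 ± 64.7 in control (SD, n = 3 each), so control was 3.39 times as high. Leaving Ccrl2 out, the sums were 1151 ± 192 and 22315 ± 74.1, and control was 19.4 times as high. Ccrl2 made up 82.7% ± 0.73 of the family sum with DKK1 and 0.938% ± 0.05 in control. Cxcr1 made up 12.9% ± 0.52 and 0.95% ± 0.06, so the pair held nearly the whole sum with DKK1. In control the sum was mostly Cxcr2, at 0.14% ± 0.03 with DKK1 and 54.2% ± 0.04 in control. Ccr1 held 0.839% ± 0.08 and 26.2% ± 0.36, and Cxcr4 held 2.84% ± 0.31 and 17.2% ± 0.37, again with DKK1 and in control (SD, n = 3 each throughout).

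The order of levels per kilobase with DKK1 was Ccrl2, Cxcr1, Cxcr4, Ccr1, Cxcr2, Cx3cr1, Ccr3 and Ccr2, and the libraries of Cxcr2 and Cx3cr1, and of Ccr3 and Ccr2, overlapped. In control it was Cxcr2, Ccr1, Cxcr4, Cxcr1, Ccrl2, Ccr3, Ccr2 and Cx3cr1, with overlap between Cxcr1 and Ccrl2, at 214 ± 12.7 and 211 ± 10.6 per kilobase, and between Ccr3 and Ccr2. DKK1 library 2 had the highest DKK1 value for 5 of the 8 receptors.

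**Figure D3:**
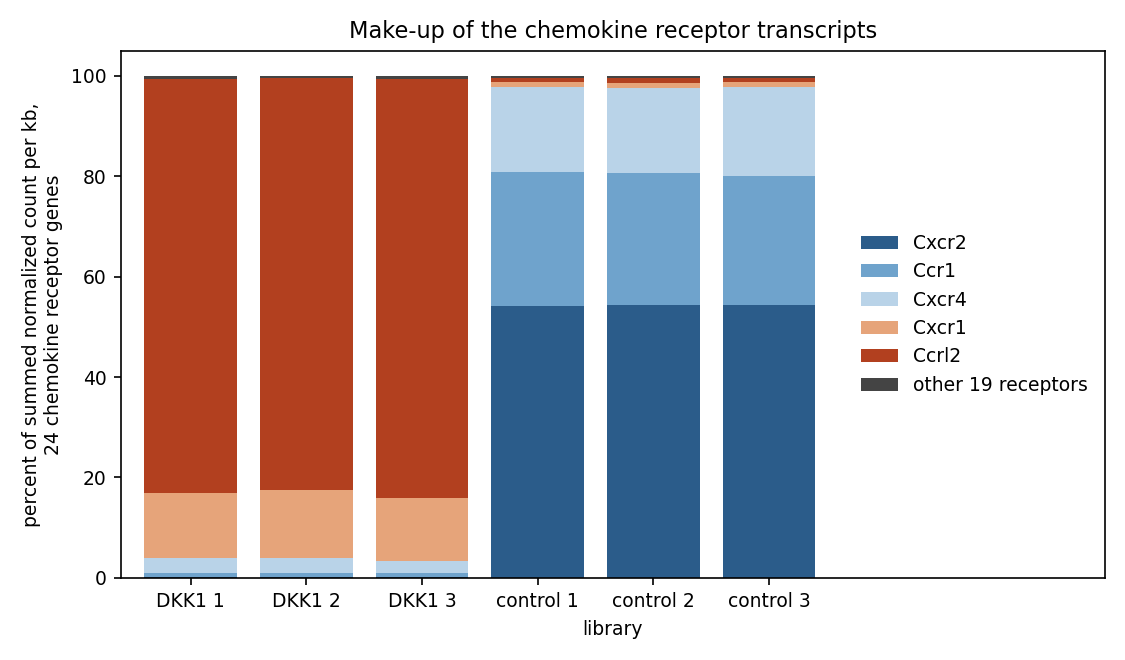
Share of each gene in the summed normalized count per kilobase of 24 chemokine receptor genes, 1 bar per library, 3 DKK1 libraries left of 3 control libraries. Ccrl2 and Cxcr1 fill most of each DKK1 bar, and Cxcr2, Ccr1 and Cxcr4 fill most of each control bar.

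Some of the receptor genes are clustered in the genome, and in places genes with opposite changes lie side by side (positions from GENCODE M21 on mm10). Cxcr2 (chromosome 1, 74153989 to 74161246, plus strand) and Cxcr1 (chromosome 1, 74191785 to 74194631, minus strand) are next to each other with a gap of 30538 bases. On the far side of Cxcr2 the gene Rufy4 fell to 4.32 ± 3.86 with DKK1, against 365 ± 12.3 in control, and on the far side of Cxcr1 the actin-branching gene Arpc2 fell to 2707 ± 59.7, against 7649 ± 74.6. Cxcr1 thus rose between neighbours that fell.

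On chromosome 9, Ccr1 (123962124 to 123968692, minus strand), Ccr3 (124021972 to 124031689, plus strand) and Ccr2 (124101950 to 124113557, plus strand) lie in 1 cluster and all fell. Ccr1l1, between Ccr1 and Ccr3, had 0 reads with DKK1 and 2.84 ± 1.69 in control. On the far side of Ccr1 the change differed. Xcr1, the receptor gene of cross-presenting dendritic cells, stood at 19.2 ± 5.36 with DKK1 and 0.366 ± 0.63 in control and was called higher (limma adjusted p = 8.64e-05).

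Ccrl2 (chromosome 9, 111054486 to 111057519, minus strand) lies apart from that cluster, beside the lactoferrin gene Ltf and Lrrfip2. Ltf, a specific granule gene 11718 bases away, fell to 107 ± 22.9 with DKK1, against 1628 ± 47.6 in control. Lrrfip2 rose to 2764 ± 83.0, against 799.9 ± 46.3. Cxcr4 (chromosome 1, 128588199 to 128592293, minus strand) lies outside these clusters. Cx3cr1 (chromosome 9, 119901616 to 120069879, minus strand) lies beside Ccr8, which had 0 reads in both groups.

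**Figure D4:**
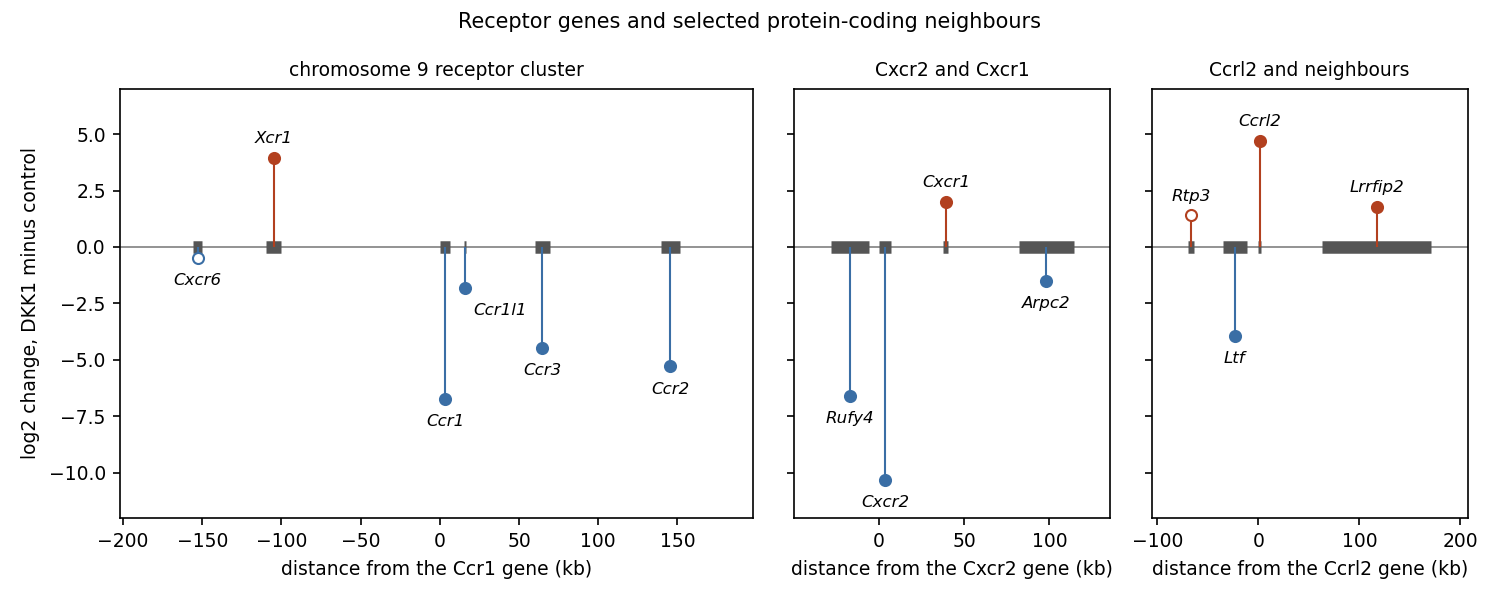
Log2 change (DKK1 minus control) of receptor genes and selected protein-coding neighbours against distance in kilobases from Ccr1, Cxcr2 or Ccrl2, with gene bodies as grey bars. Red marks genes higher with DKK1, blue marks genes lower, and open circles did not pass the threshold. Cxcr1 and Ccrl2 each rise beside a gene that falls.

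The other 16 receptors of the family were low throughout, at 0.364% ± 0.10 of the family sum per kilobase with DKK1 and 0.283% ± 0.04 in control. Of the 11 that could be tested, 2 were higher, 3 lower and 6 did not pass, beside 35.1% higher and 36.1% lower over all genes tested. Ccr7, which guides cells to lymph nodes, stood at 20.1, 19.2 and 25.3 with DKK1 and had 0 reads in control, so it was at least 20.3-fold higher than the floor of 3 reads over the group. Cxcr3, a receptor of interferon-induced chemokines, stood at 0, 0 and 1.63 with DKK1, against 65.9, 106 and 84.7 in control. Ccr6 and Ccr1l1 had 0 reads with DKK1 and were at least 6.74-fold and 3.12-fold lower. Without any 1 of the DKK1 libraries 1 gene was higher, and without any 1 of the control libraries 1 was lower, because the filter asks for 3 libraries and a gene seen in the remaining 2 alone no longer entered. Lymphocyte markers moved with Cxcr3 and Ccr6. Of 8 B cell markers 7 were lower and 0 higher, with summed levels of 42.6 to 116 in DKK1 libraries and 1498 to 1611 in control. Of 3 T and NK cell markers tested 2 were lower and 0 higher, with sums over the list of 10 of 1.37 to 5.96 and 54.2 to 89.0. Their part in the result was not tested.

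Genes of the ligands moved mostly upwards. Of 14 ligand genes tested, 9 were higher, 3 lower and 2 did not pass, with a median log2 change of 3.29, beside 35.1% higher, 36.1% lower and a median of -0.03 over all genes tested. The list of 22 was drawn up with earlier results of these data known. For Cxcr2, which fell, the ligand gene Cxcl1 rose to 431, 922 and 585 with DKK1, against 2.20, 2.23 and 1.97 in control (log2 change 7.62, SE 0.29, limma adjusted p = 2.03e-08). Cxcl2, chosen after its values were seen, rose to 22299.8 ± 8999 against 7422 ± 233, with DKK1 library 2 at 32657. For Ccr1, the ligand gene Ccl6 fell to 249 ± 80.5, against 27207 ± 496. Ccl3 and Ccl5, further CCR1 ligand genes given after their values were seen, rose. Ccl3 stood at 16661 ± 5440 with DKK1 and 1013 ± 30.4 in control, and Ccl5 at 46.2 ± 14.7 and 2.50 ± 0.70. Ccl9, also on the ligand list, was not called, at 314 ± 87.7 with DKK1 and 234 ± 16.2 in control (limma adjusted p = 0.0796). Ccl4, an inflammatory CC chemokine gene, rose to 6701 ± 1470 against 154 ± 13.1 (log2 change 5.42, SE 0.14, limma adjusted p = 1.64e-09).

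For Ccr2, which was nearly lost, the ligand gene Ccl2 rose to 277 ± 22.4, against 13.4 ± 3.22 in control (log2 change 4.29, SE 0.22, limma adjusted p = 1.27e-07). For Cxcr4, the ligand gene Cxcl12 was low and fell from few reads, standing at 0.745, 1.37 and 0 with DKK1, against 13.2, 7.82 and 22.7 in control. Mif, another gene on the ligand list, given after its values were seen, rose to 1236 ± 70.7, against 33.8 ± 14.3 in control. Cx3cl1, which encodes the ligand of CX3CR1, stood at 0, 0 and 2.45 with DKK1 and had 0 reads in control. The eotaxin genes Ccl11 and Ccl24, ligands of CCR3, had 0 reads in both groups.

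Signalling genes downstream of the receptors fell more often than they rose. Of 26 genes of G proteins and effectors, 20 were lower, 5 were higher and 1 missed the threshold, with a median log2 change of -1.41. Over all genes tested 36.1% were lower and 35.1% higher, with a median of -0.03. With equal totals 16 of the 26 were lower and 7 higher, beside 29.2% and 43.6% of all genes. Prex1, a Rac activator driven by G protein subunits, fell to 830.5 ± 36.5, against 5862 ± 3.10 (log2 change -2.82, limma adjusted p = 4.25e-10). Rasgrp4, a Ras activator, fell to 67.1 ± 10.6, against 6509 ± 53.6, and the Src-family kinase gene Fgr to 721 ± 17.8, against 7309 ± 64.4. Those that rose included Vav1, a guanine nucleotide exchange factor, at 6024 ± 498 with DKK1 and 2197 ± 24.4 in control, and Elmo1, a partner of DOCK2, at 2197 ± 274 and 812 ± 49.2. Pik3r5, a regulatory subunit of PI3K gamma, rose to 6816 ± 409.6, against 2865 ± 144. Partners of these gene products on the same list fell. The other regulatory subunit gene Pik3r6 fell to 37.7 ± 14.2, against 760 ± 47.6, and the catalytic Pik3cg to 90.2 ± 24.3, against 3102 ± 52.1. Dock2 fell to 1064 ± 37.4, against 4803 ± 80.8.

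The desensitisation list of 16 tested genes held receptor kinases, arrestins and RGS proteins, which end receptor signals. It also held Sh3bp5 and Gpr35, which belong to none of these classes. Of the 16, 10 were lower, 4 were higher and 2 missed the threshold, with a median log2 change of -3.47. Over all genes tested 36.1% were lower and 35.1% higher, with a median of -0.03. Sh3bp5 was 1 of the 4 higher (log2 change 0.26, limma adjusted p = 0.0472), and Gpr35 was 1 of the 2 that missed. Rgs2 fell to 61.7 ± 12.7 with DKK1, against 11293 ± 131, and Rgs3 to 29.4 ± 3.16, against 1659.9 ± 56.3. The receptor kinase gene Grk2 fell to 992 ± 51.6, against 9289 ± 246 (log2 change -3.23, SE 0.06, limma adjusted p = 2.31e-10). Rgs1 rose to 2094, 4834 and 2355, against 261, 275 and 210 in control, and DKK1 library 2 stood highest. Rgs10 and Grk3 rose from low levels, by 2.30-fold and 1.69-fold. Without DKK1 library 1 the list had 2 genes higher in place of 4.

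**Figure D5:**
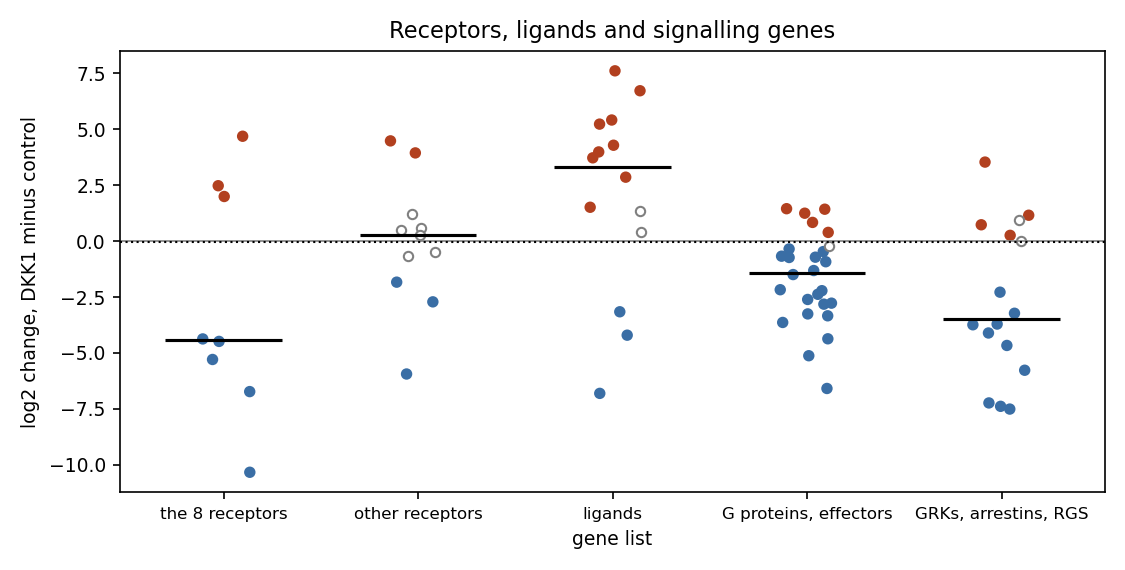
Log2 change (DKK1 minus control) of each tested gene of the 8 receptors, the other receptors, the ligands, the G proteins and effectors, and the desensitisation list. That last list includes Sh3bp5 and Gpr35. Red genes were called higher, blue lower and open circles neither, with black lines at list medians and a dotted line at the median of all genes; ligand medians lie above 0 and those of the 8 receptors and the signalling lists below it.

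Over the 6 libraries, the genes whose log2 values followed Cxcr2 most closely were Slfn5 and Oasl2 (Pearson r above 0.99 for each), and for Ccrl2 they were Basp1 and Tecpr1. With 2 groups this far apart likeness is common, as 1624 and 1280 of 7091 genes compared had r over 0.99 with Cxcr2 and Ccrl2, so these names describe a shared split between groups in the same libraries and nothing more.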

How the data were processed

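Each library has 1 column of deposited normalized counts, a signal that is never negative, per the file headers; the build was mm10, per the submitters' processing notes. Aligner, counter, annotation and normalization tool: not given in the sources used here; 3 further per-sample columns match no sample and were not used. All values (100%) were whole multiples of 1 read within a tolerance of 0.001 reads, so reads were recovered. The main test was limma 3.58.1 (R 4.3.3, trend and robust) on log2(value + 1), for genes with at least 1 in at least 3 libraries, two-sided, Benjamini-Hochberg adjusted. Had the table held raw counts, edgeR would have been the main test. On recovered reads edgeR 4.0.16 (quasi-likelihood, TMM) called 4985 genes higher and 4851 lower of 11870. DESeq2 1.42.0 was a further alternative. Replicate pairs differed beyond counting noise (chi-square), most of all those with DKK1 library 2. Chi-square per degree of freedom was 13.6 and 12.5 for its pairs with DKK1 libraries 1 and 3. It was 2.99 between DKK1 libraries 1 and 3, and 2.19 to 2.26 between control libraries. Scripts were tested on simulated data.

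Members and lists were chosen with earlier results of these data known. Named genes were the 8 members, up to 3 genes of smallest adjusted p per direction and list, and those most like Cxcr2 and Ccrl2; others were chosen after their values were seen. Exon lengths and positions came from GENCODE M21, matched without version for 91.3% of identifiers. Promoters came from RefSeq, and all 8 receptors had an entry. The RefSeq start lay 1583 bases from the GENCODE start for Cx3cr1 and 233 for Ccr2, whose windows are not shown. Ccrl2 had 3 entries, and the one nearest the GENCODE start was used. Folds are ratios of group means, except where a group had 1 to 3 reads. The floor of 3 reads equals a mean of 0.911 with DKK1 and 1.06 in control. Intervals are exact at 95%. Some neighbouring genes are not reported here.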

Additional observations from a re-analysis of the deposited data

How the results depend on the processing

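Alternatives changed the scaling (equal totals or median of ratios), the pseudocount (0.1 or 10), the low-value filter (none, or 10), the tool (edgeR or DESeq2), the block or the libraries (each left out). All 8 receptors kept their direction and call under each of these 15 alternatives, with 3 higher and 5 lower every time. Log2 changes ranged from -10.43 to -9.82 for Cxcr2, 1.86 to 2.53 for Cxcr1, -4.53 to -3.84 for Cxcr4, -6.91 to -6.20 for Ccr1, 4.59 to 5.22 for Ccrl2 and 1.60 to 2.97 for Cx3cr1. Calls in the other 16 receptors moved most, with 1 to 3 higher and 1 to 3 lower when a library was left out, and 1 lower with edgeR and 1 lower with a filter of 10, where fewer genes entered. Of the desensitisation list 2 to 4 genes were higher when a library was left out and 2 with DESeq2. The cause was not tested. With the replicate block 5630 genes were higher and 5817 lower. Same-numbered libraries deviated with correlations of -0.00517, 0.00659 and 0.0172, so the numbers do not pair them, and not every library correlated best with its own number. Depth limits Ccr2 and Ccr3 with DKK1, at 1 and 3 reads.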
